A study of Eublepharis macularius with 18 samples.

Results

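Hearts taken 3 days post injury (3 dpi) were set against hearts of sham-operated animals to measure the acute response of ventricle to freezing in a lizard, Eublepharis macularius, the leopard gecko. The comparison covers 9898 genes, chosen because their normalized counts averaged 10 or more across the 3 libraries of 3 dpi and the 3 of sham, out of 12376 rows measured in 18 animals. The other 2478 rows fell below that mean; Myo1g, at 10.002, was the last gene inside and 2300009A05Rik, at 9.98, the first outside. At 3 dpi the pericardium had been torn and a metal probe chilled in liquid nitrogen had been laid on the ventricle, and the tissue taken lay beside the injury. Sham hearts gave a comparable piece of ventricle, and the labels do not say what the sham operation held or when those hearts were taken. Control hearts, and hearts at 14, 30 and 100 dpi, each in 3 animals, entered the model and are given where they bear on a gene. Strain, age and sex of the animals are not given in the sources used here, and RNA was extracted from each animal on its own.

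Freezing kills heart muscle and the other cells under the probe at once. In vertebrate hearts the days that follow are known for the entry of blood-borne immune cells, the clearing of dead tissue, the activation of fibroblasts, which lay down a provisional matrix, and changes in the epicardium, the epithelial cover of the heart. The ventricle also holds nerve fibres, glia and, in ganglia, neurons, many of them cholinergic. In bulk tissue a lower or higher level can stand for fewer or more cells of a type or for less or more RNA per cell, and these cannot be told apart.

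The 6 libraries held 14005868 to 19298109 reads, and a floor of 3 reads in a library came to between 2.57 and 3.57 normalized counts. Values near or under that floor carry a large counting error besides the spread between animals. The library of 3 dpi animal 3 stood apart: its Pearson r with the other 5 across genes was 0.922 to 0.951, against 0.946 to 0.975 among those 5. Genes of the contractile apparatus of cardiomyocytes, which check the tissue label, summed to 1537100, 1610100 and 1167500 normalized counts at 3 dpi and to 1150800, 1280900 and 1324800 in sham. Levels below are normalized counts, and log2 differences, with their SE, are 3 dpi minus sham on the scale log2(normalized count + 1), on which low genes appear to change by less than they do. Calls were made where limma gave a Benjamini-Hochberg adjusted p under 0.05 over all 9898 genes.

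At 3 dpi, 97 genes were called against sham, 0.98% of those tested. Of these, 67 rose (0.677%) and 30 fell (0.303%). The genes that rose moved further: their log2 differences ran from 0.44 to 5.28 with a median of 1.75, and 26 of the 67 lay beyond a log2 difference of 2. Those that fell ran from -0.46 to -1.67 with a median of -0.76, and 24 of the 30 lay within a log2 difference of 1. The median over all tested genes was 0.00347, and 1908 of them (19.3%) had an unadjusted p under 0.05. The median level of the genes that rose was 374 normalized counts at 3 dpi and 111 in sham, and that of the genes that fell was 903 at 3 dpi and 1417 in sham. In all 97 the 3 animals of one group lay on one side of the 3 of the other, as they did in 1315 tested genes higher at 3 dpi (13.3%) and 1151 lower (11.6%).

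The number of calls rested on single libraries. limma called 29 genes without sham 1, 2 without sham 2, 6 without sham 3, 7 without 3 dpi 1, 120 without 3 dpi 2 and 4 without 3 dpi 3. Only Zcchc24 was called in all 6 of these fits. The median log2 difference of the 67 genes that rose was 1.58 without 3 dpi 3, and that of the 30 that fell was -0.67. With the spread taken from the 6 libraries of 3 dpi and sham alone, 5 genes were called, of which 1 was among the 97. On the recovered reads edgeR called 106 genes, 88 of them among the 97, and DESeq2 called 618, 96 of them among the 97.

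**Figure D1:**
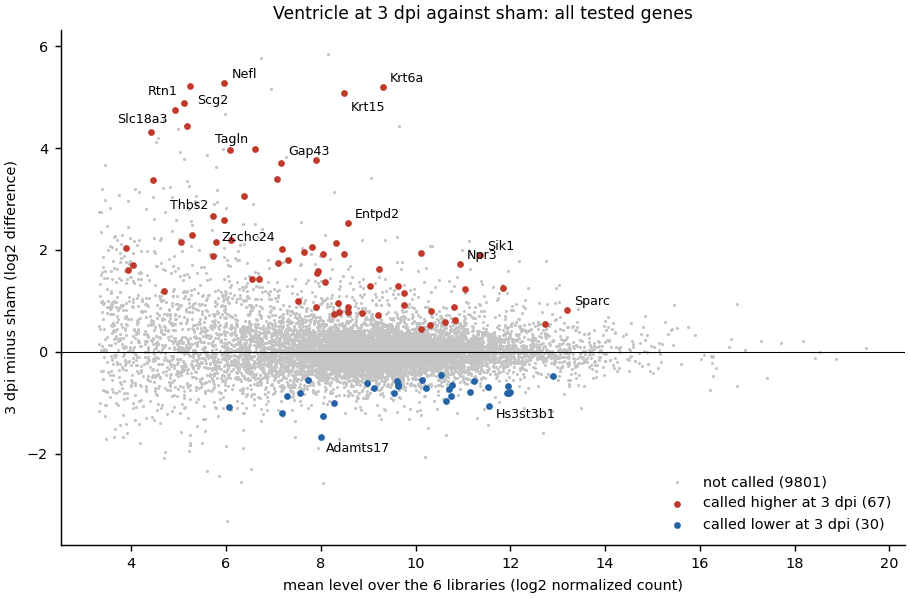
Each point is 1 of the 9898 tested genes, placed by its mean level over the 6 libraries (log2 normalized count, x axis) and its log2 difference, 3 dpi minus sham (y axis). The 67 genes called higher (red) reach 5.28, while the 30 called lower (blue) stay between -0.46 and -1.67.

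The rises of largest log2 difference were of genes known from neurons and from epithelia. Nefl (ENSMUSG00000022055), which forms the light neurofilament of axons, had 77.6, 126 and 156 at 3 dpi, against 13.1, 0 and 0.902 in sham (log2 5.28 ± 1.07 SE, limma adjusted p = 0.0393). Scg2 (ENSMUSG00000050711), secretogranin II of dense-core vesicles, had 129, 58.1 and 37.1 at 3 dpi, against 4.76, 0 and 0 in sham (log2 5.21 ± 0.96 SE, limma adjusted p = 0.0393). The groups did not overlap in either gene, as in every called gene, and in sham animal 1 held nearly all of the reads of both. Rtn1, a reticulon of neuroendocrine cells, had 66.3, 73.8 and 58.6 at 3 dpi, against 10.7, 0 and 0 in sham (log2 4.88, adjusted p = 0.0393). Slc18a3, which loads acetylcholine into synaptic vesicles, had 56.1, 58.1 and 58.6 at 3 dpi, against 9.52, 0 and 0 in sham (log2 4.74, adjusted p = 0.0393). The 3 animals at 3 dpi lay close together in Slc18a3, and in sham only animal 1 had reads. Gap43, a protein of growing axons, had 214, 132 and 450.1 at 3 dpi, against 16.7, 6.0 and 46 in sham (log2 3.71, adjusted p = 0.0393), and its highest library was 3 dpi 3. Prph, the intermediate filament of peripheral neurons, had 63.3, 82.1 and 123 at 3 dpi, against 34.5, 14.6 and 12.6 in sham (log2 2.15, adjusted p = 0.043). Syn2, a synapsin of synaptic vesicles, had 68.4, 25.8 and 28.3 at 3 dpi, against 5.95, 0 and 0 in sham (log2 4.31, adjusted p = 0.0451).

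These 7 were the members of the neuronal list that rose. The neuronal list held 52 genes, of which 47 had a row and 22 passed the minimum mean. Of the 22, 7 rose and 0 fell, against 0.677% and 0.303% of all tested genes. A positive difference was measured in 20, and the list median was 2.11. The minimum mean was taken over both groups. Members low in sham, among them Nefl, Scg2, Rtn1, Slc18a3 and Syn2, therefore passed it only through their 3 dpi levels. That filter favours positive differences and a high list median, and with no minimum mean the median was lower, as given under the processing alternatives. Next in order, though not called, Uchl1, a ubiquitin hydrolase abundant in neurons, had 114, 113 and 193 at 3 dpi, against 17.9, 36 and 18.9 in sham (log2 2.51, adjusted p = 0.0712). Tubb3, the neuronal beta-tubulin, had 149, 75.7 and 80.1 at 3 dpi, against 9.52, 15.4 and 1.8 in sham (log2 3.64, adjusted p = 0.0823). For Stmn2, a microtubule regulator of neurites, the values were 66.3, 40.6 and 52.7 at 3 dpi, against 14.3, 6.0 and 5.41 in sham (log2 2.59, adjusted p = 0.0882). Chrna3, a subunit of the ganglionic nicotinic receptor, was near the floor in sham, with 8.16, 21.2 and 24.4 at 3 dpi, against 3.57, 0 and 2.71 in sham (log2 2.75, adjusted p = 0.127). The groups overlapped in Syt1, a calcium sensor of synaptic vesicles, which had 68.4, 49.8 and 93.7 at 3 dpi, against 60.7, 47.1 and 15.3 in sham (log2 0.93, adjusted p = 0.433). The 25 members with a row but below the minimum mean gathered 327 reads at 3 dpi and 54 in sham, of which 34 came from sham 1. In 20 of the 25 the mean was higher at 3 dpi. The same share over all rows below the minimum mean was not computed. Rows without reads were fewer at 3 dpi over the whole table as well, with 1327, 1298 and 1207, against 1573, 1568 and 1476 in sham. How far the counts of these 25 members go beyond that general difference was not tested. Th, of catecholamine synthesis, and the neuropeptide gene Vip had no reads in any of the 6 libraries.

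All 7 had their highest group mean at 3 dpi and lower means at every later time, an order that was not tested as such. Means of Nefl over control, sham, 3, 14, 30 and 100 dpi were 2.92, 4.66, 120.1, 4.09, 1.26 and 1.58. Slc18a3 had no reads in any of the 9 libraries at 14, 30 and 100 dpi. Its log2 difference for 14 dpi minus 3 dpi was -5.87 (limma adjusted p = 0.0523). The lowest limma adjusted p of that comparison was 0.0520, for Tspan18. limma called 0 genes there (0%), with 1211 at an unadjusted p under 0.05. The calls of neuronal genes also turned on single libraries. Of the 7, limma called 6 without sham 1, 0 without sham 2, 1 without sham 3, 0 without 3 dpi 1, 2 without 3 dpi 2 and 0 without 3 dpi 3. Their log2 differences were 1.90 to 5.61 without 3 dpi 3. A pseudocount of 0.1 in place of 1 called 2 of the 7, and edgeR on the recovered reads called 5.

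**Figure D2:**
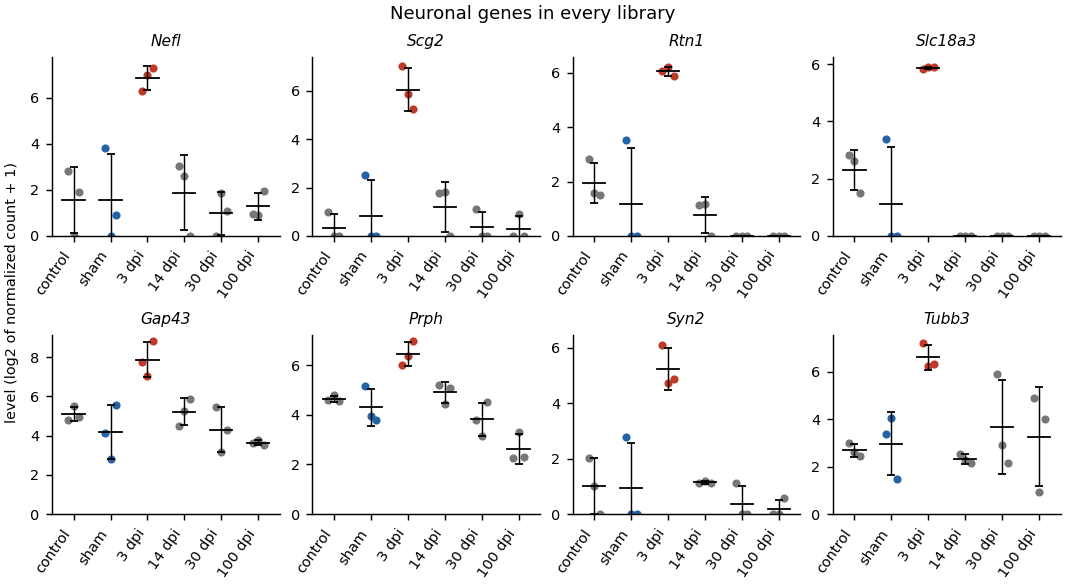
Level of 8 neuronal genes, as log2 of normalized count + 1 (y axis), in control, sham and 4 times after injury (x axis). Points are libraries of single animals and bars give the mean ± SD of 3 animals. In each panel the 3 dpi points (red) lie above all sham points (blue), as in every gene called higher. Tubb3 was not called.

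Glial genes were set beside them, because nerves hold Schwann cells as well as axons. On the Schwann cell and glia list limma called 0 of 14 tested members, with 5 at an unadjusted p under 0.05, edgeR called 0 and DESeq2 4. Of all tested genes, 19.3% had an unadjusted limma p under 0.05. The median of the glial list was 0.61, and 12 of 14 differences were positive. Ednrb, the endothelin B receptor, which neural crest glia and endothelium both use, had 1176, 932 and 832 at 3 dpi, against 118, 151 and 163 in sham (log2 2.76, adjusted p = 0.0591). Sox10, the transcription factor that defines Schwann cells, had 12.2, 21.2 and 21.5 at 3 dpi, against 13.1, 5.14 and 0.902 in sham (log2 1.78, adjusted p = 0.165). Sham 1 had a level of Sox10 inside the range of 3 dpi, and it also had the highest sham levels of Nefl, Scg2, Rtn1, Slc18a3, Prph and Syn2. The level of the glial list, as the median deviation of its members on the log2 scale, was 0.07, 0.27 and 0.42 at 3 dpi, against 0.41, -0.31 and -0.56 in sham. In the fit without sham 1 the median of the glial list was 0.98. How much nerve tissue each piece of ventricle held was not measured, and its part in the neuronal result was not tested.

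Krt6a, Krt15, Aqp3, Gjb5 and Cdh1, each known from epithelia, also rose, and each was highest in 3 dpi animal 3. They were grouped after their values were seen and were taken only from genes that rose. Dsp, a protein of desmosomes, and Fermt1, a kindlin, were called lower (log2 -0.80 and -0.55). Of the 5 only Cdh1 is a member of the list of epicardium, mesothelium and simple epithelium. Krt6a (ENSMUSG00000058354), a keratin of stratified epithelia that wounding induces in mouse skin, had 645, 357 and 2685 at 3 dpi, against 13.1, 9.43 and 83.9 in sham (log2 5.20 ± 1.13 SE, limma adjusted p = 0.0435). Krt15, a keratin of basal epithelial cells, had 478, 231 and 1379.5 at 3 dpi, against 15.5, 3.43 and 53.2 in sham (log2 5.08, adjusted p = 0.047). Keratins form a large family, and neither name is among the gecko's RefSeq symbols, so which gecko keratin these rows measure is uncertain. Aqp3, a water and glycerol channel of epithelia, had 123, 88.6 and 1161 at 3 dpi, against 13.1, 7.71 and 41.5 in sham (log2 3.76, adjusted p = 0.0434). Gjb5, a connexin of epithelial gap junctions, had 39.8, 12 and 162 at 3 dpi, against 3.57, 0 and 0.902 in sham (log2 4.43, adjusted p = 0.0393). Cdh1, E-cadherin of epithelial junctions, had 264, 216 and 640.5 at 3 dpi, against 117, 105 and 119 in sham (log2 1.54, adjusted p = 0.0486). As in every called gene, no 3 dpi library overlapped sham in these 5 genes. Gjb5 and Cdh1 are not among the gecko's RefSeq symbols either, so which gecko genes they name is likewise uncertain.

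Krt8 and Krt18, the keratin pair of simple epithelia such as the mesothelium, were not called. Krt18 had 345, 243 and 2392 at 3 dpi, against 98.8, 14.6 and 106 in sham (log2 3.42, adjusted p = 0.0588), and Krt8 had 263, 119.9 and 1308 at 3 dpi, against 32.1, 13.7 and 124 in sham (log2 3.14, adjusted p = 0.083), with 3 dpi 2 below sham 3. Krt17, a keratin that wounding induces in skin and which was chosen after its values were seen, had 51, 12.9 and 1638 at 3 dpi, against 1.19, 0 and 1.8 in sham (log2 5.85, adjusted p = 0.0554). Among markers of the epicardium, Wt1, a transcription factor of activated epicardium, had 196, 108 and 242 at 3 dpi, against 54.7, 72.9 and 96.5 in sham (log2 1.23, adjusted p = 0.242), and Tbx18, another epicardial transcription factor, had 487, 614 and 755 at 3 dpi, against 282, 366 and 433 in sham (log2 0.78, adjusted p = 0.145). Both were higher in each 3 dpi animal without passing the test. On the list of epicardium, mesothelium and simple epithelium, 1 of 11 tested members rose, Cdh1, and 0 fell. Of all tested genes, 0.677% rose and 0.303% fell. Of the differences 6 were positive and 5 negative, and the median was 0.78; it was 0.13 with no minimum mean. Aldh1a2, an epicardial enzyme of retinoic acid synthesis, had 91.9, 42.4 and 85.9 at 3 dpi, against 60.7, 66.9 and 107 in sham (log2 -0.12, adjusted p = 0.922), and Cldn1, a tight junction protein, had 0, 11.1 and 2.93 at 3 dpi, against 2.38, 1.71 and 83 in sham (log2 -1.34, adjusted p = 0.642). Krt5, a keratin of stratified epithelia on the list of neighbouring tissues, was at 0 in all 6 libraries. Without 3 dpi 3 the log2 differences of the 5 epithelial genes were between 1.07 and 4.40, and limma called 0 of them (lowest adjusted p = 0.144). It called 1 of the 5 without sham 1, 0 without sham 2, sham 3 or 3 dpi 1, and 5 without 3 dpi 2.

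**Figure D3:**
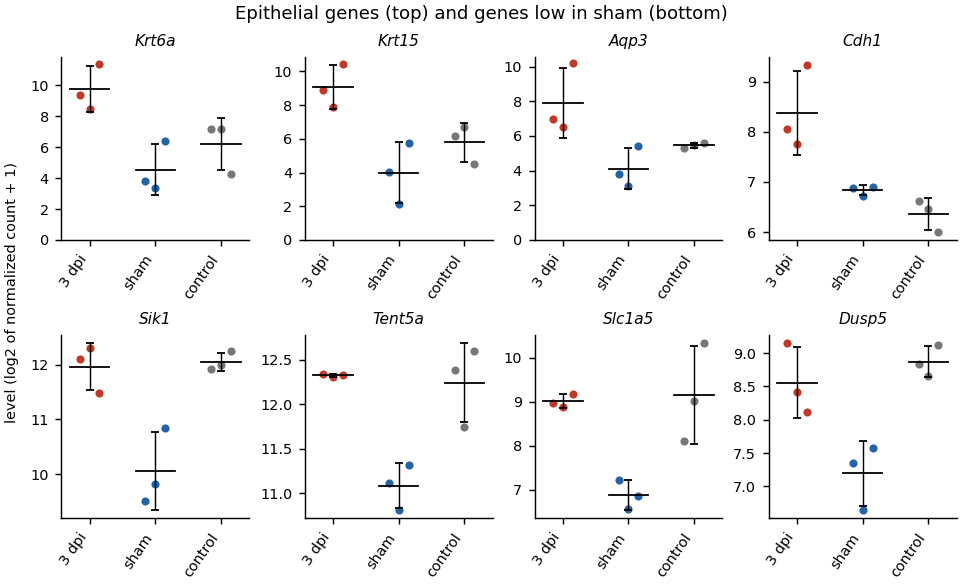
Levels, as log2 of normalized count + 1 (y axis), at 3 dpi (red), in sham (blue) and in control (grey), where points are single animals and bars the mean ± SD of 3. In the upper row 3 dpi 3 is the highest point of Krt6a, Krt15, Aqp3 and Cdh1; in the lower row sham lies below both other groups for Sik1, Tent5a, Slc1a5 and Dusp5.

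Matrix proteins of wounds rose, while no fibrillar collagen passed the test. Thbs2, thrombospondin 2, a matricellular protein that binds matrix and cell receptors, had 51, 84 and 141 at 3 dpi, against 22.6, 9.43 and 9.02 in sham (log2 2.66 ± 0.45 SE, limma adjusted p = 0.0393). Tnc, tenascin C, which appears in the provisional matrix of wounds, had 281, 378 and 425 at 3 dpi, against 124, 78 and 62.2 in sham (log2 2.06 ± 0.39 SE, limma adjusted p = 0.0393). Sparc, a collagen-binding matricellular protein, had 9546, 12169 and 14003 at 3 dpi, against 5742, 6389 and 8166 in sham (log2 0.81 ± 0.15 SE, limma adjusted p = 0.0393). Igfbp5, which binds insulin-like growth factors and matrix, had 250.1, 223 and 497 at 3 dpi, against 88.1, 89.1 and 59.5 in sham (log2 1.95, adjusted p = 0.0393). As in every called gene, no 3 dpi animal overlapped sham in any of these 4, and all 4 were highest in 3 dpi 3. Of 24 tested matricellular and wound proteins these 4 rose, 0 fell, and 21 had positive differences, with a median of 0.76. Of all tested genes, 0.677% rose. Postn, periostin, had 3534, 3323 and 4388 at 3 dpi, against 1407, 1928 and 2528 in sham (log2 0.97, adjusted p = 0.116), and Has2, a hyaluronan synthase, had 28.6, 40.6 and 241 at 3 dpi, against 5.95, 5.14 and 14.4 in sham (log2 2.94, adjusted p = 0.0662). Tgfbi, a matrix adhesion protein, ran the other way without passing, with 13770, 4565 and 5097 at 3 dpi, against 10532, 20370 and 14888 in sham (log2 -1.11, adjusted p = 0.171).

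Among fibrillar collagens and matrix proteins, 2 of 39 tested members rose, 0 fell and 33 had positive differences, with a median of 0.65. The share of all tested genes that rose was 0.677%. Prelp, a leucine-rich proteoglycan that anchors collagen to basement membrane, had 161, 145 and 146 at 3 dpi, against 76.2, 51.4 and 42.4 in sham (log2 1.44, adjusted p = 0.0393). Col8a1, a short-chain collagen of vessel walls and endothelium, had 65.3, 80.3 and 194 at 3 dpi, against 28.6, 9.43 and 34.3 in sham (log2 2.20, adjusted p = 0.0437). The fibrillar collagens themselves were not called: Col1a1 had 5867, 8008 and 10397 at 3 dpi, against 2535, 4374 and 6043 in sham (log2 0.96, adjusted p = 0.257), and Col1a2 had 5245, 6175 and 9115 at 3 dpi, against 2609, 3104 and 4431 in sham (log2 1.01, adjusted p = 0.0999). Col3a1 had 26686, 26546 and 32551 at 3 dpi, against 16189, 18478 and 23788 in sham (log2 0.57, adjusted p = 0.377). Col12a1, a collagen that decorates fibrils, had 225, 353 and 818 at 3 dpi, against 77.4, 111 and 169 in sham (log2 1.82, adjusted p = 0.0543), and Fbln5, which helps to assemble elastic fibres, had 87.8, 113 and 367 at 3 dpi, against 36.9, 16.3 and 47.8 in sham (log2 2.29, adjusted p = 0.0514). Outside these lists, Ccdc80, a matrix-bound secreted protein, had 368, 423 and 927 at 3 dpi, against 137, 106 and 182 in sham (log2 1.92, adjusted p = 0.0393). Pappa, a protease that frees insulin-like growth factors by cutting their binding proteins, had 139.8, 125 and 148 at 3 dpi, against 49.981, 52.3 and 48.7 in sham (log2 1.43, adjusted p = 0.0393), with little spread in either group.

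Contractile proteins of smooth muscle were part of the same set of rises. Myh11, smooth muscle myosin, had 45.9, 118 and 296 at 3 dpi, against 21.4, 7.71 and 13.5 in sham (log2 3.06, adjusted p = 0.0393), and Tagln, transgelin, had 117, 96 and 339 at 3 dpi, against 17.9, 1.71 and 18 in sham (log2 3.99, adjusted p = 0.041). Both were highest in 3 dpi 3. Other members were not called: Acta2, smooth muscle actin, had 68546, 82088 and 45704 at 3 dpi, against 41632, 48216 and 46280 in sham (log2 0.49, adjusted p = 0.371), and Cnn1, calponin, had 22402, 31332 and 22122 at 3 dpi, against 28131, 18338 and 24885 in sham (log2 0.09, adjusted p = 0.815). The smooth muscle, myofibroblast and pericyte list had a median of 0.43. Of its 18 tested members 2 were called higher, against 0.677% of all tested genes, and 0 were called lower. On the fibroblast list limma called 0 of 18 tested members, with 8 at an unadjusted p under 0.05, edgeR called 0 and DESeq2 3, and the median was 0.54. Of the 10 matrix and contractile genes that rose, Thbs2, Tnc, Sparc, Igfbp5, Prelp, Col8a1, Pappa, Ccdc80, Myh11 and Tagln, limma called 3 without sham 1, 0 without sham 2, 1 without sham 3, 3 without 3 dpi 1, 7 without 3 dpi 2 and 0 without 3 dpi 3. Their log2 differences without 3 dpi 3 were 0.69 to 3.43.

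**Figure D4:**
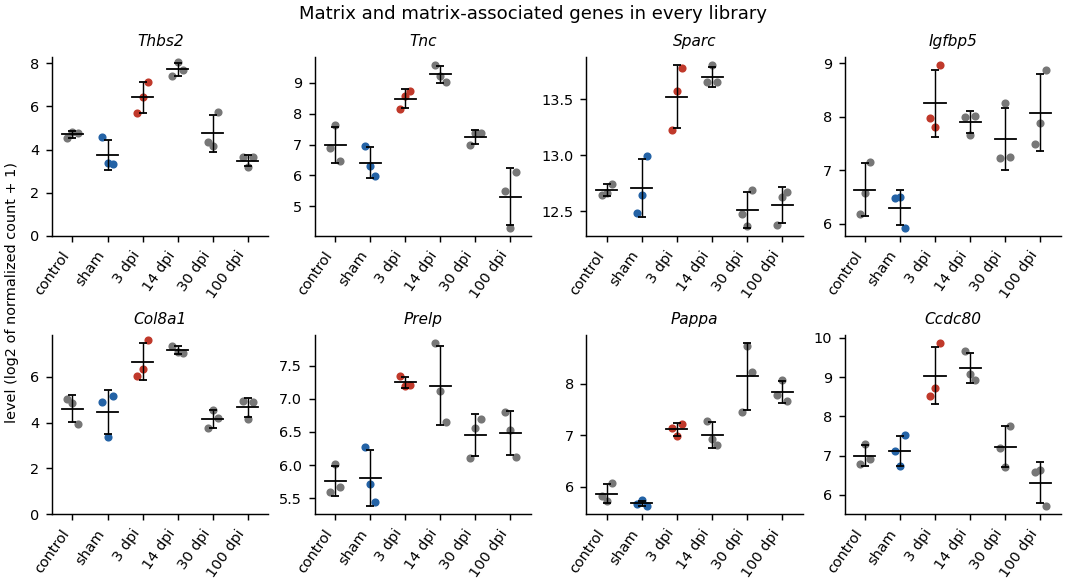
Level of 8 matrix and matrix-associated genes, as log2 of normalized count + 1 (y axis), in control, sham and 4 times after injury (x axis), with single animals as points and the mean ± SD of 3 as bars. Thbs2, Tnc and Sparc are higher at 3 dpi (red) than in sham (blue) and higher again in mean at 14 dpi, while Pappa is highest at 30 dpi.

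The smallest p of the whole comparison belonged to Zcchc24 (ENSMUSG00000055538), a CCHC-type zinc finger protein. It had 232, 159 and 317 at 3 dpi, against 40.5, 61.7 and 66.7 in sham (log2 2.02 ± 0.25 SE, limma adjusted p = 0.00622). Entpd2, which breaks down extracellular ATP at the cell surface, had 523, 509 and 909.9 at 3 dpi, against 145, 102 and 84.8 in sham (log2 2.52 ± 0.38 SE, limma adjusted p = 0.0268). A related enzyme, Entpd3, had 97, 131 and 90.8 at 3 dpi, against 30.9, 9.43 and 15.3 in sham (log2 2.59, adjusted p = 0.0435), and P2ry2, a receptor for extracellular ATP and UTP, had 344, 381 and 381 at 3 dpi, against 146, 117 and 105 in sham (log2 1.59, adjusted p = 0.0451). These purinergic genes were grouped after their values were seen. limma called 1 of the 3 without sham 1, 3 dpi 1 or 3 dpi 2, and 0 without sham 2, sham 3 or 3 dpi 3. The log2 difference of Entpd2 was 2.25 without 3 dpi 3 (adjusted p = 0.0666).

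Npr3, the clearance receptor of natriuretic peptides, which is rich in endocardium, had 2681, 2231 and 4085 at 3 dpi, against 1335, 695 and 721 in sham (log2 1.73 ± 0.29 SE, limma adjusted p = 0.0393). It was the 1 gene called among 22 tested endothelial and endocardial genes, whose median was 0.11, with 14 differences positive and 8 negative. Of all tested genes, 0.98% were called. Nos3, endothelial nitric oxide synthase, had 1564, 1596 and 4724 at 3 dpi, against 628, 1243 and 1042 in sham (log2 1.28, adjusted p = 0.111), and Vwf, von Willebrand factor, had 1025, 1395 and 1270.2 at 3 dpi, against 676, 266 and 343 in sham (log2 1.62, adjusted p = 0.238), neither of them called. Sox17, a transcription factor of arterial endothelium and endocardium, lay the other way without being called, with 62.3, 81.2 and 40.028 at 3 dpi, against 142, 167 and 149 in sham (log2 -1.36, adjusted p = 0.0999). The level of that list was 0.10, -0.12 and 0.51 at 3 dpi, against -0.25, -0.19 and 0.03 in sham, with 3 dpi 3 highest. C8a, a subunit of the complement attack complex, rose and had 94.9, 72 and 84 at 3 dpi, against 27.4, 25.7 and 14.4 in sham (log2 1.89, adjusted p = 0.0451). Complement C3, the central component of the cascade, showed a wide gap without passing the test, with 13711, 9560.0 and 9147 at 3 dpi, against 3070.3, 3023 and 3118 in sham (log2 1.79, adjusted p = 0.113). No other of the 11 tested complement genes was called, and the list median was 0.45. Masp1, a protease of the lectin pathway, was lower in mean at 3 dpi, with 527, 1207 and 379 at 3 dpi, against 1755, 1729.6 and 1039 in sham (log2 -1.24, adjusted p = 0.131).

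Further rises lay in transport and metabolism. Slc39a8, a zinc and manganese importer, had 165, 85.8 and 499.9 at 3 dpi, against 16.7, 9.43 and 32.5 in sham (log2 3.40, adjusted p = 0.0393). Rhpn2, rhophilin 2, had 85.7, 48.9 and 251 at 3 dpi, against 9.52, 0.857 and 13.5 in sham (log2 3.97, adjusted p = 0.0393). Both were again highest in 3 dpi 3. Alas1, the first enzyme of haem synthesis, had 2522, 2236 and 2268 at 3 dpi, against 1233, 1249 and 1349 in sham (log2 0.87, adjusted p = 0.0393), and Snx30, a sorting nexin, had 242, 185 and 314 at 3 dpi, against 133, 132 and 101 in sham (log2 0.99, adjusted p = 0.0393). Of the 7 genes Zcchc24, Npr3, C8a, Rhpn2, Slc39a8, Alas1 and Snx30, limma called 3 without sham 1, 1 without sham 2, 2 without sham 3, 1 without 3 dpi 1, 6 without 3 dpi 2 and 1 without 3 dpi 3.

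Cell surface and secretory genes were also among those that rose. Cd9, a tetraspanin of many cell types, had 584, 512 and 1183 at 3 dpi, against 336, 225 and 318 in sham (log2 1.29, adjusted p = 0.0435). Cadm3, an adhesion protein known from nerves, had 293, 405 and 544 at 3 dpi, against 146, 125 and 64.9 in sham (log2 1.91, adjusted p = 0.0451), and Ackr4, a scavenger of chemokines, had 63.3, 22.1 and 37.1 at 3 dpi, against 2.38, 0.857 and 7.21 in sham (log2 3.37, adjusted p = 0.0393). Slc12a2, a sodium, potassium and chloride carrier, had 352, 472 and 481 at 3 dpi, against 287, 178 and 211 in sham (log2 0.96, adjusted p = 0.0426). Mgat1, which starts complex N-glycans, had 959, 849.7 and 1668 at 3 dpi, against 624, 544 and 584 in sham (log2 0.92, adjusted p = 0.0451), and Slc35b2, which carries the sulfate donor into the Golgi, had 464, 429.9 and 589.7 at 3 dpi, against 258, 285 and 259.7 in sham (log2 0.87, adjusted p = 0.0451). As in every called gene, no 3 dpi animal overlapped sham in these 6.

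Rises were also measured in genes of signalling, chromatin and translation. Pde4d, a phosphodiesterase that breaks down cAMP, had 7947, 6825 and 9379 at 3 dpi, against 5692, 5575 and 5238 in sham (log2 0.54, adjusted p = 0.041). Smarca4, the motor of SWI/SNF chromatin remodelling, had 365, 391 and 511 at 3 dpi, against 208, 267 and 255 in sham (log2 0.78, adjusted p = 0.0451), and Eif5b, which joins ribosomal subunits, had 1329.8, 1460.5 and 1685 at 3 dpi, against 1035, 963 and 1087 in sham (log2 0.53, adjusted p = 0.0451). Psen2, a subunit of gamma-secretase, had the smallest log2 difference among the 67, with 1245, 1371 and 1218 at 3 dpi, against 959, 977 and 895 in sham (log2 0.44, adjusted p = 0.0393). Ywhab, a 14-3-3 protein, and Agpat1, of phospholipid synthesis, had log2 differences of 0.61 and 0.78. Unc5b, a netrin receptor, had 22.5, 15.7 and 32.2 at 3 dpi, against 10.7, 4.29 and 6.31 in sham (log2 1.61, adjusted p = 0.0451), and Pamr1, a secreted peptidase-like protein, had 64.3, 37.8 and 60.5 at 3 dpi, against 10.7, 6.86 and 18 in sham (log2 2.16, adjusted p = 0.0499). Cbx6, a Polycomb protein, had 16.3, 16.6 and 41 at 3 dpi, against 8.33, 4.29 and 2.71 in sham (log2 2.04, adjusted p = 0.0406). Counting Nbeal1 and the 6 surface and secretory genes, these 16 genes gave 3 calls without sham 1, 8 without 3 dpi 2 and 0 without each of the other 4 libraries.

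A further set of genes called higher at 3 dpi had lower means in sham than in control as well. That was not particular to them: over all 67 genes that rose, the median of sham minus control was -0.38. Genes described above lay lower in sham too, such as Rhpn2 (log2 -2.01), Krt15 (-1.82), Krt6a (-1.66) and Tagln (-1.61). limma called none of these for 3 dpi minus control (adjusted p = 0.192, 0.18, 0.144 and 0.179). C8a (0.46) and Cdh1 (0.47) lay higher in sham. The 10 genes that follow were chosen after their values were seen. The comparisons of 3 dpi with sham and of sham with control share the sham libraries. Sik1, a salt-inducible kinase that cAMP signalling induces, had 4399, 5013 and 2858 at 3 dpi, 727, 901 and 1847 in sham and 3869, 4058 and 4838 in control. Its log2 difference was 1.90 ± 0.30 SE from sham (limma adjusted p = 0.0268), -0.09 for 3 dpi minus control (adjusted p = 0.913) and -1.99 for sham minus control (adjusted p = 0.0575). Tent5a, a noncanonical poly(A) polymerase, had 5201, 5067 and 5137 at 3 dpi, 2209.9, 1796 and 2548 in sham and 5339, 3434 and 6188 in control. Dusp5, a phosphatase of ERK induced by ERK signalling, had 564, 339.5 and 276 at 3 dpi, 163, 99.4 and 190.3 in sham and 457, 401 and 556 in control. In both of these the sham animals lay below every animal of 3 dpi and control. Slc1a5, a glutamine transporter, had 500.1, 471 and 583 at 3 dpi, 149, 93.4 and 115 in sham and 274, 519 and 1282 in control, and Irs2, an adaptor of the insulin receptor, had 2159, 1192 and 1908 at 3 dpi, 315, 446 and 628 in sham and 1038, 1333 and 2075 in control. The log2 differences from sham were 1.25 for Tent5a, 1.36 for Dusp5, 2.13 for Slc1a5 and 1.93 for Irs2 (adjusted p = 0.0393 for each).

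Fosl2, a subunit of AP-1, had 854, 718 and 1165 at 3 dpi, 349, 270.0 and 258 in sham and 584, 525 and 839 in control, and Midn, which takes part in the breakdown of transcription factors by the proteasome, had 3068, 2482 and 3322 at 3 dpi, 1504, 1016 and 1254 in sham and 2449, 2176 and 3338 in control. Sgk1, a kinase that glucocorticoids induce, had 926, 1008 and 1688 at 3 dpi, 428, 550.3 and 613 in sham and 946, 1101 and 1510.3 in control. Klf13, a zinc finger transcription factor, had 254, 254 and 208 at 3 dpi, 140.4, 48 and 45.1 in sham and 152, 80.013 and 133 in control, and Apcdd1, an inhibitor of Wnt signalling, had 908, 1368 and 1106 at 3 dpi, 479.6, 513 and 387 in sham and 636, 764 and 1486 in control. Their log2 differences from sham ran from 1.15 for Sgk1 to 1.80 for Klf13. Of the 10 genes limma called 4 without sham 1, 0 without sham 2, 1 without sham 3, 0 without 3 dpi 1, 8 without 3 dpi 2 and 1 without 3 dpi 3. Over all genes limma called 33 for 3 dpi minus control (0.333%), and 0 for sham minus control (0%), where 479 genes had an unadjusted p under 0.05 and the lowest adjusted p was 0.0575.

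Immediate early genes, which stimuli switch on within minutes, include 2 of those just described. Of 28 tested members, Fosl2 and Dusp5 rose and 0 fell, against 0.677% and 0.303% of all tested genes. The list median was 0.27 for 3 dpi minus sham, -0.85 for 3 dpi minus control and -0.95 for sham minus control. Nr4a1, an orphan nuclear receptor, had 18516, 9909.6 and 7468 at 3 dpi, 3279.7, 4346 and 6362 in sham and 22367, 17227 and 23540 in control (log2 1.31, adjusted p = 0.0975 against sham). Fosb, another AP-1 subunit, had 277, 72 and 57.6 at 3 dpi, 11.9, 66.9 and 15.3 in sham and 258, 330.2 and 1072 in control (log2 2.13, adjusted p = 0.242), and control had the highest mean of the 3 groups. Klf2, a transcription factor that blood flow induces in endothelium, had 2969, 2267 and 3070.5 at 3 dpi, 862, 1329 and 836 in sham and 1786, 3237 and 8498 in control (log2 1.48, adjusted p = 0.141). On this list limma called 2 genes without 3 dpi 2 and 0 in each of the other 5 fits that left out a library.

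Genes that fell at 3 dpi came from many cell functions, and most fell by less than a log2 difference of 1. Hs3st3b1, which adds a sulfate to heparan chains, had 1719, 2149 and 1982 at 3 dpi, against 4292, 3566 and 4314 in sham (log2 -1.06 ± 0.16 SE, limma adjusted p = 0.0268). Dsp, desmoplakin, which ties the intermediate filaments of heart muscle to desmosomes, had 3748, 2572 and 2682 at 3 dpi, against 5730.0, 4545 and 5241 in sham (log2 -0.80 ± 0.16 SE, limma adjusted p = 0.0393). Hmgb1, a chromatin protein that also acts as an alarm signal outside cells, had 6839, 6407 and 5930.1 at 3 dpi, against 8383, 9146 and 9225 in sham (log2 -0.48, adjusted p = 0.0393). Mkln1, muskelin, a subunit of the CTLH ubiquitin ligase, had 1645, 1693 and 1592 at 3 dpi, against 3722, 2363 and 2652 in sham (log2 -0.80, adjusted p = 0.0393), and Ubr7, another ubiquitin ligase, had 636, 675 and 548 at 3 dpi, against 1162, 859.7 and 892 in sham (log2 -0.64, adjusted p = 0.0393). The 3 dpi animals lay close together in Mkln1 and Hmgb1. Alkbh8, which modifies transfer RNA, had 142, 185 and 132 at 3 dpi, against 514, 310.3 and 299 in sham (log2 -1.26, adjusted p = 0.0393). Ice2, of the complex that transcribes small nuclear RNA genes, had 148, 123 and 138 at 3 dpi, against 257, 220.3 and 243 in sham (log2 -0.81, adjusted p = 0.0393), and Ngdn, neuroguidin, had 598, 593 and 431 at 3 dpi, against 1151, 832 and 855 in sham (log2 -0.81, adjusted p = 0.0393). Among the other genes of this set, Tom1, of endosomal sorting, Pbx4, a homeobox factor, Ctnnal1, an alpha-catenin-like protein, and Renbp, which acts on N-acetylglucosamine, fell by 0.86, 0.66, 0.58 and 0.57 on the log2 scale.

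Of these 12, the genes with the lowest p among those that fell, limma called 1 without sham 1, 0 without sham 2, 0 without sham 3, 1 without 3 dpi 1, 9 without 3 dpi 2 and 0 without 3 dpi 3. Their log2 differences without 3 dpi 3 ran from -1.16 to -0.43. Other genes that fell included Pold1, the catalytic subunit of DNA polymerase delta, with 112, 115 and 103 at 3 dpi, against 204, 207 and 191 in sham (log2 -0.86, adjusted p = 0.0393). In that gene and in Fancm, a helicase of DNA repair, the 3 dpi animals lay close together, and Fancm had 85.7, 90.4 and 84.9 at 3 dpi, against 174, 204 and 227 in sham (log2 -1.20, adjusted p = 0.0393). Usp28, a deubiquitinase, had 2646, 3492 and 2986 at 3 dpi, against 5734, 4205 and 4691 in sham (log2 -0.68, adjusted p = 0.041), and Coq8a, needed for coenzyme Q synthesis, had 3546, 3384 and 2000.4 at 3 dpi, against 4839.9, 5153 and 5137 in sham (log2 -0.81, adjusted p = 0.0434). The deepest fall was that of Adamts17, a secreted metalloprotease, with 191, 91.3 and 86.9 at 3 dpi, against 527, 419 and 226 in sham (log2 -1.67, adjusted p = 0.0451). Among regulators, Eif4a2, a helicase of translation initiation, had 2425, 3517 and 2538 at 3 dpi, against 6011, 4028 and 4859.6 in sham (log2 -0.81, adjusted p = 0.0414), and Zeb2, a zinc finger repressor of transcription, had 1306, 1316 and 1140.3 at 3 dpi, against 1689, 1621 and 1863 in sham (log2 -0.46, adjusted p = 0.0414). Ccar2, a nuclear regulator of apoptosis, had 676, 661 and 491 at 3 dpi, against 1065, 933 and 906 in sham (log2 -0.68, adjusted p = 0.0414). Topors, a ubiquitin and SUMO ligase, had 191, 161 and 161 at 3 dpi, against 232, 253 and 271 in sham (log2 -0.56, adjusted p = 0.0451), and Dach2, a transcriptional cofactor, had 1387, 1517 and 929 at 3 dpi, against 2405, 1863 and 1962 in sham (log2 -0.72, adjusted p = 0.0451). Atic, of purine synthesis, Tspan18, a tetraspanin, and Fermt1, a kindlin that activates integrins, fell by 0.98, 1.00 and 0.55 on the log2 scale. Of these 13 genes limma called 1 without sham 1, 8 without 3 dpi 2 and 0 without each of the other 4 libraries. Beside the 3 dpi minus sham median of -0.76, the 30 genes had a median log2 difference of -0.61 for 3 dpi minus control and of 0.18 for sham minus control, which share libraries with it. In the same order, the medians of the 67 genes that rose were 1.75, 1.23 and -0.38.

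limma called 0 of the immune cell markers tested at 3 dpi. For macrophages and monocytes, limma called 0 of 16 tested members, with 2 at an unadjusted p under 0.05, edgeR called 0 and DESeq2 0; the median was 0.21. Mrc1, the mannose receptor of macrophages, had 572, 634 and 1671 at 3 dpi, against 438, 147 and 472 in sham (log2 1.43, adjusted p = 0.168), with 3 dpi 3 highest. Ptprc, the pan-leukocyte antigen CD45, had 78.6, 85.8 and 118 at 3 dpi, against 57.1, 68.6 and 73.9 in sham (log2 0.48, adjusted p = 0.418). Csf1r, the receptor that macrophages need to survive, had 339, 304 and 487 at 3 dpi, against 312, 400.3 and 279.6 in sham (log2 0.18, adjusted p = 0.837), and the groups overlapped. The list level, as the median deviation of its members on the log2 scale, was 0.03, -0.14 and 0.56 at 3 dpi, against -0.11, -0.03 and -0.07 in sham, and without 3 dpi 3 the median difference was 0.017. Of the genes listed, 9 of 21 for granulocytes and 8 of 47 for cytokines had a row. So did 6 of 24 T cell genes and 7 of 17 B cell genes, and the rest had no row to test. Of those with a row, 4 granulocyte genes, 7 cytokine genes, 2 T cell genes and 2 B cell genes passed the minimum mean. limma, edgeR and DESeq2 called 0 of each, with 1 cytokine gene and 0 of the other 3 lists at an unadjusted p under 0.05. On the interferon response list 14 of 15 differences were negative, and the median was -0.42. In 4 of the 15 all 3 dpi animals lay below sham, against 11.6% of all genes. The level of the interferon list was -0.42, -0.42 and 0.05 at 3 dpi, against 0.01, 0.43 and 0.30 in sham, so that 3 dpi 3 lay above sham 1. Rsad2, an antiviral protein that interferon induces, had 7.14, 10.1 and 5.86 at 3 dpi, against 22.6, 33.4 and 30.7 in sham (log2 -1.79, adjusted p = 0.255), and Ifih1, a sensor of viral RNA, had 105, 119 and 103 at 3 dpi, against 175, 208 and 153 in sham (log2 -0.70, adjusted p = 0.313). limma called 0 of the 15, with 1 at an unadjusted p under 0.05, and edgeR and DESeq2 also called 0.

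Genes of cell division varied widely among the animals of each group. The mitosis and cytokinesis list had 34 of 38 differences below 0 and a median of -0.66, and its level was -1.04, -1.03 and 1.12 at 3 dpi, against -0.78, 0.19 and 1.94 in sham. Sham 3 and 3 dpi 3 were the highest libraries of their groups. Cdk1, the kinase of mitotic entry, had 6.12, 7.38 and 85.9 at 3 dpi, against 27.4, 59.997 and 365 in sham (log2 -2.31, adjusted p = 0.301). limma called 0 of the 38, with 0 at an unadjusted p under 0.05, and edgeR and DESeq2 called 0. Without sham 3 the list median was 0.00336, and without 3 dpi 3 it was -1.48. On the list of S phase and DNA replication, Pold1 was the 1 of 51 tested members that fell, 0 rose, and the median was -0.08. Of all tested genes, 0.303% fell and 0.677% rose.

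Chaperones of the endoplasmic reticulum did not pass the test, though no 3 dpi animal overlapped sham in the 3 given here. Hspa5, the main chaperone of that compartment, had 3075, 2791 and 4953 at 3 dpi, against 1908, 2352 and 1761 in sham (log2 0.81, adjusted p = 0.0862). Calr, calreticulin, had 3931, 4133 and 6746 at 3 dpi, against 2511, 3539.8 and 2378 in sham (log2 0.79, adjusted p = 0.0951), and Hsp90b1, which folds secreted proteins, had 2478, 2315 and 3004 at 3 dpi, against 1541, 1960.2 and 1429 in sham (log2 0.67, adjusted p = 0.101). Of 42 tested heat shock and unfolded protein response genes, 16 had all 3 dpi animals above all sham animals, against 13.3% of all genes, and the median was 0.23. limma called 0, with 16 at an unadjusted p under 0.05, edgeR 0 and DESeq2 7.

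Lists of heart muscle genes differed in the sign of their medians, whose size rested on single libraries. The contractile median was 0.057 without 3 dpi 2, and the median of cardiac transcription factors was -0.015 without 3 dpi 3. For the contractile apparatus, limma called 0 of 31 tested members, with 3 at an unadjusted p under 0.05, edgeR called 0 and DESeq2 0; the median was 0.18. Acta1, skeletal actin, which stressed ventricle is known to make, had 62028, 57428 and 55672 at 3 dpi, against 21211, 34837 and 39433 in sham (log2 0.92, adjusted p = 0.192), and the groups did not overlap. Fhl2, a LIM protein of cardiomyocytes, had 35630, 37768 and 32773 at 3 dpi, against 12563, 28604 and 28207 in sham (log2 0.71, adjusted p = 0.165). Acta1 and Fhl2 belong to the list of natriuretic peptides and stress genes, which had a median of 0.46 and 16 of 21 differences positive. In 8 of the 21 all 3 dpi animals lay above sham, against 13.3% of all genes. Npr3 was the 1 gene called of those 21, against 0.98% of all tested genes. Ccn1, a matricellular protein that mechanical load induces, had 1727, 2118 and 1661 at 3 dpi, against 1140.1, 1394 and 1317 in sham (log2 0.51, adjusted p = 0.157), while Enah, a regulator of actin, had 1929, 1906 and 1537 at 3 dpi, against 1885, 2849.9 and 2377 in sham (log2 -0.39, adjusted p = 0.269). Oxidative phosphorylation had a median of 0.09 over 39 genes and fatty acid oxidation with the citric acid cycle 0.14 over 47. In both lists limma, edgeR and DESeq2 called 0, with 3 and 6 genes at an unadjusted p under 0.05. In glycolysis, Gapdh had 85979, 92335 and 81100 at 3 dpi, against 150780, 114150 and 149080 in sham (log2 -0.66, adjusted p = 0.0687), whereas Hk2, a hexokinase that hypoxia induces, had 128, 125 and 330.0 at 3 dpi, against 97.6, 72 and 73 in sham (log2 1.11, adjusted p = 0.0971). Among cardiac transcription factors the median was -0.21, and 7 of 28 had all 3 dpi animals below sham, against 11.6% of all genes. Hand1, which shapes the left ventricle in mouse development, had 3028, 2978 and 1313 at 3 dpi, against 4779, 4012 and 4778 in sham (log2 -0.98, adjusted p = 0.083), and Mef2c, an early heart muscle factor, had 1298, 1312 and 884 at 3 dpi, against 1701, 1439.9 and 1646 in sham (log2 -0.47, adjusted p = 0.0864). limma called 0 of these, with 8 at an unadjusted p under 0.05, edgeR 0 and DESeq2 3.

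Among the signalling genes not called, Bmp10, a growth factor of heart muscle, had 10627, 7469 and 16299 at 3 dpi, against 4353, 5305 and 4206 in sham (log2 1.25, adjusted p = 0.0548). For TGF-beta, activin and BMP signalling, limma called 0 of 38 tested members, with 14 at an unadjusted p under 0.05, edgeR called 1 and DESeq2 5; the median was 0.03. Igfbp5 was the 1 gene called among 35 tested growth factor genes of injury (median 0.09), against 0.98% of all tested genes. For Wnt, Notch and Hippo signalling, limma called 0 of 42 tested members, with 10 at an unadjusted p under 0.05, edgeR called 1 and DESeq2 5; the median was 0.03. In basement membrane, laminins and integrins, limma called 0 of 36 tested members, with 16 at an unadjusted p under 0.05, edgeR called 1 and DESeq2 7; the median was 0.36. Cytosolic ribosomal proteins had a median of -0.11, with 66 of 76 below 0, and the median was -0.012 without sham 1 and -0.19 without sham 3; limma called 0 of 76 tested members, with 2 at an unadjusted p under 0.05, edgeR called 0 and DESeq2 1. Among markers of neighbouring tissue, chiefly skeletal muscle, limma called 0 of 10 tested members, with 3 at an unadjusted p under 0.05, edgeR called 0 and DESeq2 1, and the median was 0.35; Pax7, Apob and Krt5 were at 0 in all 6 libraries. The members of this list summed to 429600, 445600 and 266920 normalized counts at 3 dpi, against 400470, 414750 and 413990 in sham. Whether the ventricle itself or neighbouring tissue gave these counts was not tested. Pvalb, parvalbumin of fast muscle, had 23.5, 194 and 67.4 at 3 dpi, against 80.9, 0 and 0 in sham (log2 3.99, adjusted p = 0.177). Red cell and thrombocyte genes had a median of 0.43 over 14 members, and their level was 0.00, 0.43 and 0.18 at 3 dpi, against -0.07, -0.80 and 0.37 in sham. limma, edgeR and DESeq2 called 0 of them, with 1 at an unadjusted p under 0.05.

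The collagen processing and crosslinking list had a median of 0.18; limma called 0 of 28 tested members, with 9 at an unadjusted p under 0.05, edgeR called 0 and DESeq2 3. Lox, which crosslinks collagen, had 284, 280.5 and 860.1 at 3 dpi, against 196, 143 and 252 in sham (log2 1.09, adjusted p = 0.126). For matrix proteases, cathepsins and inhibitors, limma called 0 of 36 tested members, with 7 at an unadjusted p under 0.05, edgeR called 1 and DESeq2 5, with a median of 0.13, which was 0.021 without 3 dpi 3 and 0.23 without 3 dpi 2. Mmp2, a gelatinase, had 1908, 1593 and 1752 at 3 dpi, against 1967, 1546 and 1501 in sham (log2 0.07, adjusted p = 0.897). In coagulation and fibrinolysis, limma called 0 of 13 tested members, with 4 at an unadjusted p under 0.05, edgeR called 1 and DESeq2 1, and the median was 0.26. For NF-kappa-B and inflammatory signalling, limma called 0 of 28 tested members, with 3 at an unadjusted p under 0.05, edgeR called 0 and DESeq2 0; the median was 0.01. On the lymphatic list, limma called 0 of 13 tested members, with 5 at an unadjusted p under 0.05, edgeR called 0 and DESeq2 2, with a median of 0.19. Excitation and calcium handling had a median of 0.09, where limma called 0 of 30 tested members, with 8 at an unadjusted p under 0.05, edgeR called 0 and DESeq2 1. Antioxidant enzymes had a median of 0.04, where limma called 0 of 35 tested members, with 10 at an unadjusted p under 0.05, edgeR called 0 and DESeq2 0, and cell death and p53 targets one of -0.09, where limma called 0 of 17 tested members, with 6 at an unadjusted p under 0.05, edgeR called 0 and DESeq2 1. Hypoxia and glycolysis had a median of 0.22, which was 0.066 without sham 1 and 0.36 without 3 dpi 2; limma called 0 of 32 tested members, with 8 at an unadjusted p under 0.05, edgeR called 1 and DESeq2 5. Usp28 was the 1 gene called of 67 in the proteasome and deubiquitinase list (median 0.05), and Cd9 the 1 of 37 in autophagy, lysosome and phagocytosis (median 0.06). Among all tested genes the share called was 0.98%, and the share at an unadjusted p under 0.05 was 19.3%.

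Across the 42 lists, 13 held a called gene and 29 held none. Of the 97 called genes, 21 that rose and 2 that fell were on a list. Every list count is to be read beside the shares over all tested genes, 0.677% called higher and 0.303% called lower. The share at an unadjusted limma p under 0.05 was 19.3%.

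**Figure D5:**
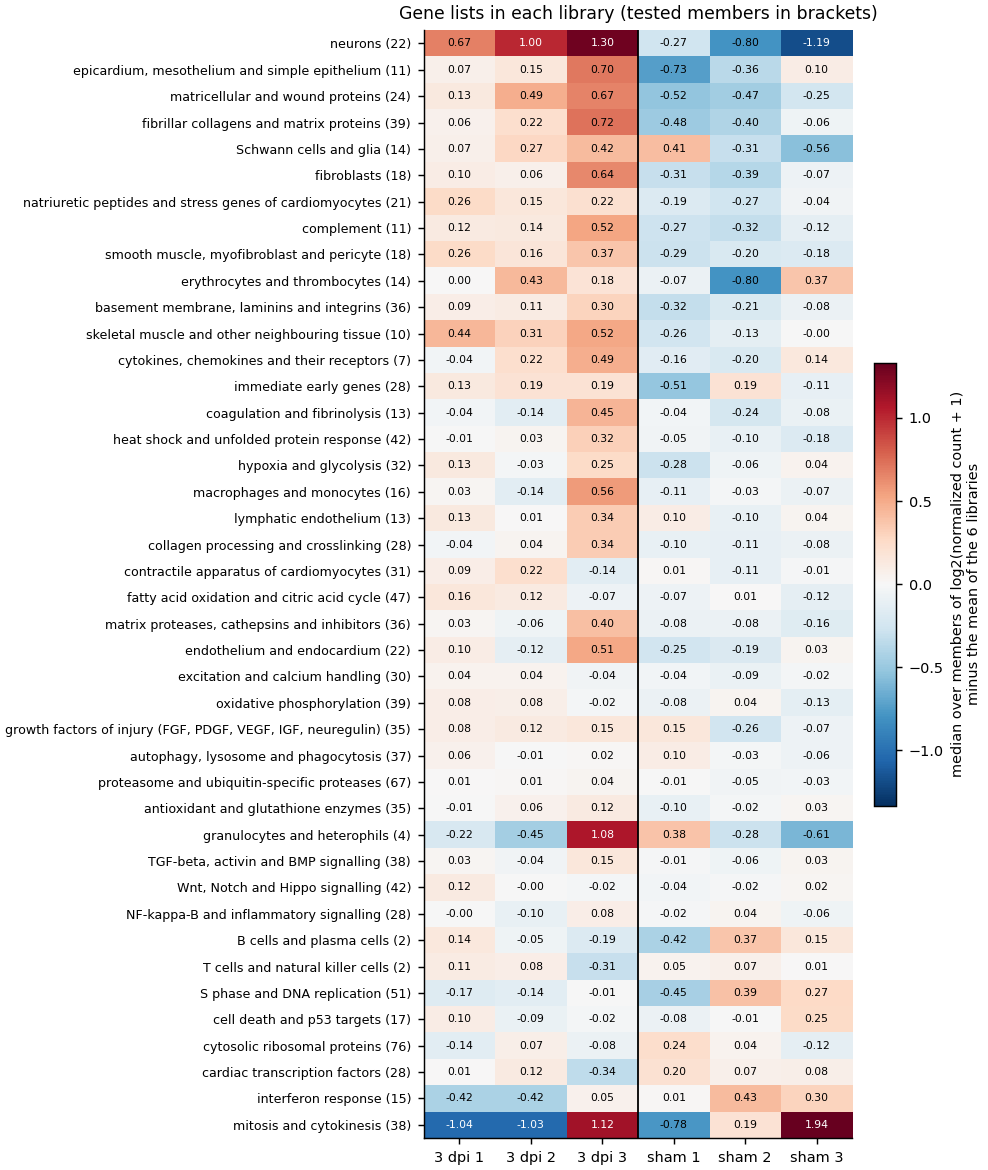
Each cell gives the level of a gene list (rows, with the number of tested members in brackets) in 1 library (columns, 3 dpi left of the line and sham right), as the median over members of log2(normalized count + 1) minus each member's mean over the 6 libraries. Neurons run from 0.67 to 1.30 at 3 dpi and from -1.19 to -0.27 in sham, while mitosis and cytokinesis range from -1.04 to 1.12 at 3 dpi and from -0.78 to 1.94 in sham. Several neuronal members passed the minimum mean, taken over these 6 libraries, only through their 3 dpi levels, so the gap between groups is partly built in.

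The called genes were also compared between 14 dpi and control. Those libraries are in neither group of the comparison with sham, but they entered the same model and so share its estimate of each gene's spread. Of the 67 genes that rose at 3 dpi, 12 were called higher at 14 dpi against control, where 71 of all tested genes were (0.717%). The overlap was thus 12 of 67 and 12 of 71. They were Zcchc24, Thbs2, Pappa, Sparc, Ccdc80, Tnc, Prelp, Cbx6, Nbeal1, Col8a1, Unc5b and Pamr1. Thbs2, Pappa, Sparc, Ccdc80, Tnc, Prelp, Col8a1 and Pamr1 code for secreted or matrix proteins, while Unc5b is a netrin receptor and Cbx6 a Polycomb protein. The log2 difference of 14 dpi minus control was 2.86 (adjusted p = 6.03e-05) for Zcchc24, 3.00 (adjusted p = 0.00731) for Thbs2 and 2.29 (adjusted p = 0.0133) for Tnc. For Sparc it was 1.02 (adjusted p = 0.00731), and for Ccdc80 2.24 (adjusted p = 0.0093). Thbs2 averaged 211 ± 45.6 at 14 dpi and 25.2 ± 2.74 in control (SD, n = 3 each), and Tnc 624 ± 119.9 and 133 ± 56.1. Neuronal genes were not among the 12. Nefl averaged 4.09 ± 3.69 at 14 dpi and 2.92 ± 3.02 in control (log2 0.31), and Gap43 38.7 ± 18.1 and 33.9 ± 9.36 (log2 0.11). Krt6a averaged 271 ± 218 and 101 ± 71.8 (log2 1.35, adjusted p = 0.591).

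Over all 67, the median of 14 dpi minus control was 0.48, with quartiles of 0.13 and 1.33, and 52 were above 0; over all tested genes the median was 0.00203. Of the 30 genes that fell at 3 dpi, 0 were called lower at 14 dpi, where limma called 17 of all genes lower (0.172%). Their median there was -0.14, with 10 above 0. Later levels ran in different ways, given here without a test. Nbeal1, a BEACH-domain protein, averaged 12.5, 15.3, 36.6, 56.5, 377 and 326 over control, sham, 3, 14, 30 and 100 dpi. Thbs2 over the same groups averaged 25.2, 13.7, 91.9, 211, 29.8 and 10.4. Zcchc24 was higher at every later time than at 3 dpi, with means of 52.1, 56.3, 236, 373, 1189.5 and 980.

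Transcript length, taken as normalized count over FPKM relative to the median of all tested genes, was 1.04 in median for the genes that rose, with quartiles of 0.655 and 1.70. For the genes that fell it was 1.15, with quartiles of 0.709 and 1.49, and over all tested genes the quartiles were 0.614 and 1.50.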

How the data were processed

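PolyA RNA of ventricle was sequenced from 18 leopard geckos, 3 in each of 6 groups, and RNA was extracted from each animal separately, per the labels' protocols. HISAT2 2.2.0, StringTie 2.2.1 and Salmon 1.8.0 are named in the submitters' processing notes. The authors deposited a normalized table of 12376 rows, a signal of read counts divided by size factors, and an FPKM table. Transcripts were assembled on a gecko genome and named after mouse genes, per the series' design text, so the rows carry mouse identifiers and symbols, and 91 of the 97 called symbols occur among the gecko's RefSeq symbols. Reads per gene were recovered from the normalized signal: 100% of values were whole within 0.1 read.

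limma 3.58.1 in R 4.3.3 was run with a mean-variance trend on log2(normalized count + 1) over all 18 libraries, with 6 group means, 12 residual degrees of freedom and two-sided moderated tests. P-values were adjusted by Benjamini-Hochberg over the 9898 tested genes, and called under 0.05. For single values, 3 animals against 3 cannot give an exact permutation p under 0.1. The alternatives were pseudocounts of 0.1 and 10, other filters, TMM factors, FPKM, the 6 libraries alone, a replicate block, a length correction, each library left out, edgeR 4.0.16, which called 106 genes, and DESeq2 1.42.0. The labels name no batch. In simulated data for 3 dpi minus sham, over 9898 genes, 54 of 90 genes changed by a log2 of 1 and 98 of 110 changed by a log2 of 2 were recovered, with 9 of 9698 unchanged genes called. Counts were drawn for each gene on its own, from a negative binomial with its mean and dispersion over the 18 libraries. No deviation was shared by the genes of a library. The simulated rates therefore leave out the effect of a library that stands apart, as 3 dpi 3 did, and are not error rates of this comparison. Named genes were the 16 called higher and the 12 called lower with the smallest p, members of 42 gene lists, and further called genes. The comparison, its members and the lists were chosen with earlier results of these data known, so list counts and medians are descriptions. Figures were drawn with matplotlib 3.10.9.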

Additional observations from a re-analysis of the deposited data

How the results depend on the processing

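None of the 16 and 12 named genes with the smallest p changed direction under the alternatives run. The groups did not overlap in any of these genes. Leaving out a library, or changing the pseudocount or the filter, therefore could not have reversed their direction. The list medians of B cells, T cells, granulocytes, NF-kappa-B signalling, S phase, TGF-beta signalling, Wnt signalling, lymphatic endothelium and mitosis crossed 0 in at least 1 of them. The 97 calls at 3 dpi against sham (67 higher, 30 lower) became 5 (5 higher, 0 lower) with the 6 libraries alone, 49 (33 higher, 16 lower) with the replicate block and 618 (399 higher, 219 lower) with DESeq2; no minimum mean gave 105 higher. With 1 library left out there were 2 to 120 calls (2 to 78 higher, 0 to 42 lower). Pseudocounts of 0.1 and 10, TMM factors, FPKM and the length correction gave 87, 108, 93, 65 and 120. The 12 genes also called at 14 dpi were 19 with DESeq2. Deviations of same-numbered libraries correlated at -0.050 to 0.222, against -0.218 to 0.255 for other numbers. So few pairs cannot show whether the replicate numbers paired the samples. The cause of each move was not tested.

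Of the 7 neuronal calls, a pseudocount of 0.1 left 2, the 6 libraries alone 0 and the replicate block 4, no minimum mean gave 13, and leaving out 1 library 0 to 6. Smooth muscle (2) had 1 with FPKM, 0 with the 6 libraries alone, 0 with the block, 4 with DESeq2 and 0 to 2 without 1 library. Fibrillar matrix (2) had 1 with FPKM, 0 with the 6 libraries, 1 with the block, 5 with the length correction, 4 with edgeR, 9 with DESeq2 and 0 to 1 without 1 library. Matricellular proteins (4) had 0 with the 6 libraries, 10 with DESeq2 and 0 to 5 without 1 library. Immediate early genes (2) had 0 with the 6 libraries, 1 with the block, 4 with DESeq2 and 0 to 2 without 1 library.

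The neuronal median of 2.11 was 1.45 with a pseudocount of 10, 1.47 with no minimum mean, 1.62 with the mean taken over 18 libraries and 1.70 with edgeR. The epicardial median of 0.78 was 0.13 with no minimum mean and 0.35 with the mean over 18 libraries. The median for neighbouring tissue, 0.35, was 0.095 with no minimum mean and 0.17 with FPKM, and that of the proteasome list, 0.046, was 0.027 with TMM factors. Without 1 library, medians ran from -0.014 to 0.092 for Wnt, Notch and Hippo signalling, 0.035 to 0.12 for antioxidant enzymes, -0.31 to -0.015 for cardiac transcription factors, 0.13 to 0.52 for coagulation, 0.056 to 0.61 for cytokines and 0.080 to 0.17 for excitation. They ran from 0.0095 to 0.25 for growth factors, -0.71 to -0.26 for the interferon response, -0.015 to 0.28 for lymphatic endothelium, 0.32 to 0.49 for natriuretic peptides, 0.026 to 0.076 for the proteasome list and 0.25 to 0.59 for neighbouring tissue. Further medians that moved by over 1.5 times without 1 library ran from 0.057 to 0.19 for the contractile apparatus, 0.12 to 0.49 for immediate early genes, 0.16 to 0.57 for red cells, 0.31 to 0.65 for fibroblasts, 0.12 to 0.32 for heat shock genes and -1.57 to 0.0034 for mitosis. Depth limits genes near the floor of 3 reads.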
